A study of Mus musculus with 10 samples.

Results

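The core circadian clock genes Arntl, Clock, Npas2, Per1, Per2, Per3, Cry1, Cry2, Nr1d1 and Dbp were examined in the ventral hippocampus (vHpc) of OVX mice. They were chosen by gene symbol, and all 10 were found among the 24421 genes of the expression matrix and among the 15081 genes tested, those with a mean of at least 0.5 CPM (counted reads scaled to 1000000 per library). The RNA came from adult female C57BL/6 mice, either WT or carrying 1 copy of the BDNF Met allele (Val66Met knock-in, Het-Met). All mice were ovariectomized (OVX), recovered for 2 weeks and then drank 300 nM estradiol (E2, about 0.7 µg per day) in 0.1% ethanol, or 0.1% ethanol alone (vehicle), for 6 weeks. Each library held RNA pooled from 2 animals, and 10 libraries were analysed here. The OVX WT mice gave 4, vehicle (replicates 1 and 3) and E2 (replicates 1 and 2), and the OVX Het-Met mice gave 6, which were 3 per treatment. The hour of day at which the mice were killed is not given in the sources used here. Pooling leaves no value for a single animal, and p-values measure the spread between pools.

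The circadian clock is a feedback loop of transcription that runs in most cells of the body. In its positive arm, the protein of Arntl (also called Bmal1) pairs with that of Clock, or with that of Npas2, a close relative of Clock that is prominent in the forebrain, and the pair activates genes through E-box sequences. Among the targets are Per1, Per2, Per3, Cry1 and Cry2, whose proteins return to inhibit the pair, Nr1d1 (Rev-erb alpha), a nuclear receptor that represses Arntl, and Dbp, a transcription factor that acts on D-box sequences. In tissues that cycle, Arntl and the group of Per genes, Nr1d1 and Dbp therefore peak at opposite times of day, and libraries taken at different clock times would be expected to show them moving in opposite directions.

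Matches to short motifs of elements such as the E-box and D-box were looked for in promoter sequences. Binding was not measured. RefSeq windows of 250 bases before a transcription start (GRCm38.p6, the assembly of mm10) were found for 9 of the 10 genes, in 13 windows, and were searched on both strands for 5 motifs. The bases that follow the windows of Cry2 and Nr1d1 were found in no transcript of these genes in GENCODE vM21, unlike those of the other windows. The E-box CACGTG stood in 2 of the 13 windows (Per1 and Cry1) and in 6.02% of all 32851 windows, and the E-prime box CACGTT stood in 3 (Cry1, Cry2 and Nr1d1) and in 3.85% of all windows. The D-box TTANGTAA stood in 1 window (Per3, at 2 places) and in 2.06% of all windows. The letters TNGGTCA stood in 4 windows and in 9.19%. They were a loose pattern for the ROR element, the site of Nr1d1 and the ROR receptors. The matches in these windows read TTGGTCA or TCGGTCA, or TGACCAA on the other strand, and were not checked against the full site of these receptors. The cAMP response element TGACGTCA stood in none of the 13 and in 1.55%. The loose ROR pattern stood in 3 of the 9 genes (Arntl, Cry2 and Per3), as 2 overlapping windows of Arntl held the same 2 matches. The windows of Clock, Npas2 and Dbp held none of the 5 motifs, which says only that these letters are not in those windows. The windows of Per1 (chr11:69098699-69098948, + strand), Cry1 (chr10:85185055-85185304, - strand), Per3 (chr4:151044666-151044915, - strand) and Arntl (chr7:113207215-113207464, + strand) are shown because each holds 1 or more of these matches and they differ in kind. They are written 5′ to 3′ on the strand of the gene, with motif matches in capitals. The capitals are the E-box in Per1, the E-prime box (read on the other strand as AACGTG) and then the E-box in Cry1, 2 D-boxes and then a match to the loose ROR pattern on the other strand (TGACCAA) in Per3, and 2 matches to that pattern in Arntl.
Per1: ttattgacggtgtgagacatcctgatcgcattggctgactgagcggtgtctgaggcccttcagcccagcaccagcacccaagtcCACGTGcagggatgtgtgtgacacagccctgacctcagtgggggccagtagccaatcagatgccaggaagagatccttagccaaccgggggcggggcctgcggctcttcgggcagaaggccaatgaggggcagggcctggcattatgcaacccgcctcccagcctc
Cry1: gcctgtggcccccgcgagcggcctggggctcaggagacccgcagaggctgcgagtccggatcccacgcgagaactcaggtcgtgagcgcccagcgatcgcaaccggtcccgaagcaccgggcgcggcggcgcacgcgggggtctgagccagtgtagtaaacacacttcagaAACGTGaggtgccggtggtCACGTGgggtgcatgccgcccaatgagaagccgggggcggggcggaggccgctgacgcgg
Per3: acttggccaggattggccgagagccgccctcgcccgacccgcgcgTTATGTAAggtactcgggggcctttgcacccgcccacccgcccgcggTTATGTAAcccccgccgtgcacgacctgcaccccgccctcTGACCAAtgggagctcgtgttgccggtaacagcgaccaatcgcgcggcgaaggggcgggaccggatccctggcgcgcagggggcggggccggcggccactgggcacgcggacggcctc
Arntl: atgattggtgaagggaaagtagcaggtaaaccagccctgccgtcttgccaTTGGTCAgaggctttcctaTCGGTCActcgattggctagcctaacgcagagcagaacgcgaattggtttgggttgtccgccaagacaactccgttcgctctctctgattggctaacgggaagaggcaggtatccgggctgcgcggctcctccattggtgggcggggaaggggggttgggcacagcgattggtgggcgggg

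All 10 genes were expressed in every library, between 206 reads (Cry1) and 4448 reads (Nr1d1) in a single library. Scaled to the length of their exons, Nr1d1 stood highest at 60.2 ± 2.77 CPM per kb (SD, n = 10 libraries), followed by Cry2 at 22.5 ± 0.592 and Per1 at 16.1 ± 1.97 CPM per kb. Cry2 lay below Nr1d1 and above Per1 in every library. Dbp (11.1 ± 0.936 CPM per kb), Npas2 (9.87 ± 1.04), Per2 (9.03 ± 1.22), Clock (8.17 ± 0.503) and Per3 (6.81 ± 0.724) formed a run in which the range of each gene overlapped that of the next. Arntl (4.35 ± 0.338 CPM per kb) and Cry1 (3.44 ± 0.313 CPM per kb) stood lowest, and the ranges of these last genes overlapped while that of Per3 lay above both. The partner genes of the positive arm thus differed in level, with Arntl below Clock and Npas2 per kb in the means.

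**Figure D1:**
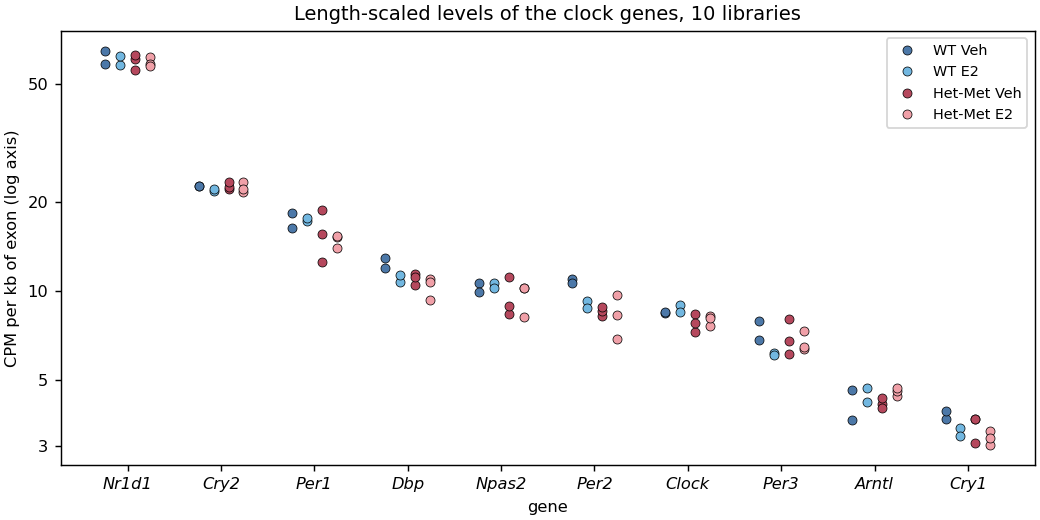
CPM per kb of exon (vertical log axis) of each clock gene in each of the 10 libraries, coloured by group. Nr1d1 and Cry2 stand apart at the top (means of 60.2 and 22.5 CPM per kb), and Arntl and Cry1 lie at the bottom (4.35 and 3.44).

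The genes differed in how far they varied between libraries. Cry2 was the steadiest, at 137.2 to 147.9 CPM, a highest value 1.08 times the lowest, and only 1.82% of the genes tested had a smaller SD within groups (0.0409 on the log2 scale, against a median of 0.124 for all genes tested). Nr1d1 ran from 172.5 to 199.5 CPM (1.16 times) and Clock from 99.9 to 123.6 CPM (1.24 times). Per2 had the widest range, from 40.3 to 64.5 CPM (1.60 times), and Per1 followed at 70.8 to 105.7 CPM (1.49 times). Counting error alone gives an SD of 0.0434 for Per2 and 0.0331 for Per1 on the log2 scale, and the SDs within groups were 0.148 and 0.179. For Cry1, the lowest of the genes, the SD within groups of 0.103 was close to its counting SD of 0.0927, so its differences between libraries were not separable from counting error at this depth.

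**Figure D2:**
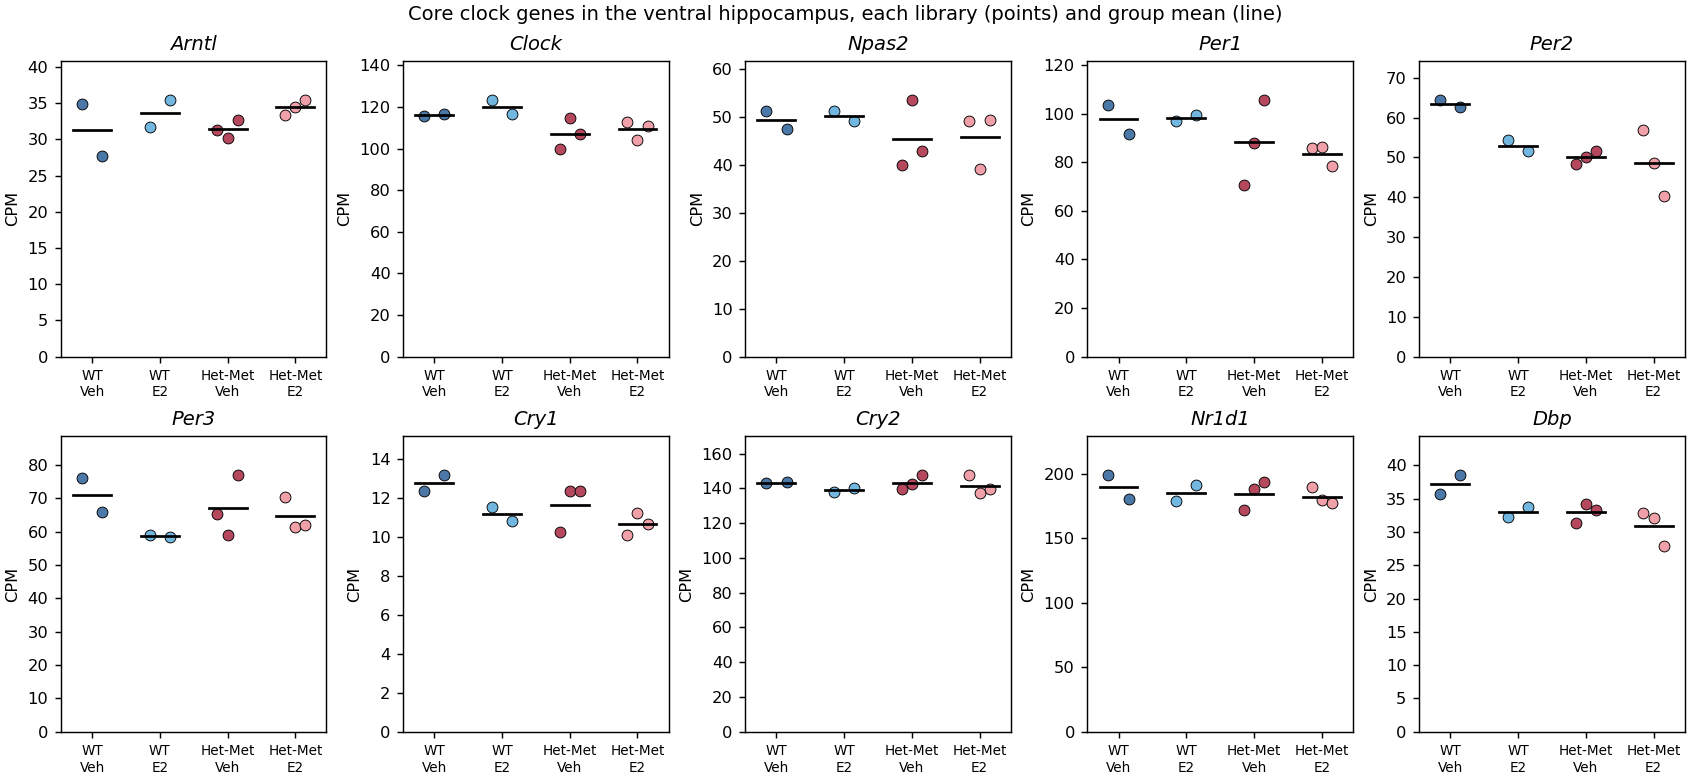
CPM of each clock gene (vertical axes from 0) in each library, with points for libraries (each a pool of 2 mice) and lines for group means. Per2 sits at 62.5 and 64.5 CPM in vehicle-treated OVX WT libraries and at 56.9 CPM or below in the other 8.

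In the positive arm, group means of Arntl ranged from 31.3 to 34.4 CPM. Arntl stood at 34.9 and 27.7 CPM in vehicle-treated OVX WT libraries and at 31.7 and 35.5 CPM in E2-treated OVX WT libraries. In OVX Het-Met mice it stood at 31.4, 30.2 and 32.7 CPM with vehicle and at 33.4, 34.5 and 35.4 CPM with E2, so all 3 E2 libraries lay above all 3 vehicle libraries. In OVX WT mice the 2 vehicle libraries of Arntl lay further apart than the group means did. Clock stood at 115.8 and 116.5 CPM (WT, vehicle), 123.6 and 116.7 CPM (WT, E2), 99.9, 114.6 and 106.9 CPM (Het-Met, vehicle) and 112.8, 104.4 and 111.0 CPM (Het-Met, E2). All 6 Het-Met libraries of Clock were below all 4 WT libraries, by a margin of 114.6 against 115.8 CPM at the nearest. Npas2 stood at 51.2 and 47.5, 51.2 and 49.2, 39.9, 53.6 and 42.8, and 49.2, 39.1 and 49.3 CPM in the same order of groups. The highest and the 3 lowest libraries of Npas2 were Het-Met libraries, and the groups overlapped.

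Among the repressors, Per1, the Per gene that is also quickly induced by neuronal activity and glucocorticoids, stood at 103.5 and 91.8 CPM (WT, vehicle), 97.1 and 99.5 CPM (WT, E2), 70.8, 87.9 and 105.7 CPM (Het-Met, vehicle) and 85.7, 86.3 and 78.6 CPM (Het-Met, E2). The vehicle-treated OVX Het-Met libraries held both the highest and the lowest value of Per1. Per2 stood at 64.5 and 62.5 CPM (WT, vehicle), 54.4 and 51.5 CPM (WT, E2), 48.4, 50.2 and 51.6 CPM (Het-Met, vehicle) and 56.9, 48.5 and 40.3 CPM (Het-Met, E2). The 2 vehicle-treated OVX WT libraries were the highest of the 10 for Per2, and the E2-treated OVX Het-Met libraries were the most spread. Per3 stood at 76.1 and 65.8, 59.1 and 58.3, 65.2, 58.9 and 77.1, and 70.5, 61.4 and 62.1 CPM in the same order. E2-treated OVX WT mice held the lowest and the third lowest value of Per3, beside a vehicle-treated OVX Het-Met library at 58.9 CPM. Cry1 ran from 10.1 to 13.2 CPM and Cry2 from 137.2 to 147.9 CPM over all libraries, with group means of 12.8, 11.2, 11.6 and 10.7 CPM for Cry1 and of 143.3, 139.0, 143.3 and 141.6 CPM for Cry2.

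For the outputs of the loop, Nr1d1 stood at 199.5 and 180.7 CPM (WT, vehicle), 179.3 and 191.2 CPM (WT, E2), 172.5, 188.0 and 193.8 CPM (Het-Met, vehicle) and 190.0, 179.8 and 177.2 CPM (Het-Met, E2), and all 4 groups overlapped. Dbp stood at 35.7 and 38.6, 32.2 and 33.8, 31.4, 34.2 and 33.3, and 32.8, 32.2 and 27.9 CPM in the same order. The 2 vehicle-treated OVX WT libraries were the highest of the 10 for Dbp, as they were for Per2. In bulk tissue such as this, fewer cells of a type and less RNA per cell cannot be told apart.

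The effect of E2 within each genotype was tested with limma, which fitted the 4 group means to log2(CPM + 0.5) of all 10 libraries. A call needed a fold change above 1.3 and an adjusted p-value (Benjamini-Hochberg, over every gene tested) under 0.05. In OVX WT mice none of the clock genes was called, 0 of 10, where 2 of all 15081 genes tested were called (0.0133%), and edgeR called 2 and DESeq2 14 genes on the recovered reads. Per2 averaged 63.5 ± 1.38 CPM with vehicle and 53.0 ± 2.05 CPM with E2 (SD, n = 2), a log2 fold change of -0.26 ± 0.12 (SE, adjusted p = 0.9999, unadjusted p = 0.0466, limma). Per3 averaged 71.0 ± 7.28 and 58.7 ± 0.576 CPM, a log2 fold change of -0.27 ± 0.12 (adjusted p = 0.9999, unadjusted p = 0.0352, limma). These made 2 of 10 clock genes with an unadjusted p-value under 0.05, both lower with E2, beside 4.04% of all genes tested in either direction and 1.66% in that direction. Their values moved by more than 1.5 times with the processing: that of Per2 was -0.44 once the level of choroid plexus markers was added to the model (an alternative added after the data had been seen), and that of Per3 was -0.16 when vehicle-treated OVX WT replicate 1 was left out.

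The 2 libraries of each treatment did not overlap for 6 of the 10 genes in OVX WT mice, with Clock higher and Per2, Per3, Cry1, Cry2 and Dbp lower with E2. With 2 libraries against 2 this is frequent: 31.8% of all genes tested did not overlap, 16.2% in the lower direction. The differences for the genes other than Per2 and Per3 were small against their errors. Dbp gave a log2 fold change of -0.17 (95% interval -0.38 to 0.05), Cry1 of -0.19 (-0.47 to 0.09), Cry2 of -0.04 (-0.19 to 0.11) and Clock of 0.05 (-0.12 to 0.22). Arntl gave 0.11 (-0.13 to 0.35), which became -0.06 when vehicle-treated OVX WT replicate 3 was left out and 0.27 without replicate 1. Npas2 (0.02), Per1 (0.01) and Nr1d1 (-0.04) lay near 0.

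In OVX Het-Met mice, 0 of 10 clock genes were called with E2 and 0 of all 15081 genes tested (0% by limma, where edgeR called 0 and DESeq2 6 genes on the recovered reads), and 0 of 10 had an unadjusted p-value under 0.05, against 822 of all genes tested (5.45%). Arntl had the largest value, a log2 fold change of 0.13 (95% interval -0.06 to 0.32, adjusted p = 0.953, unadjusted p = 0.168, limma), and was the only one of the 10 whose libraries did not overlap, as 10.3% of all genes tested did not. With the choroid plexus term in the model the value for Arntl was -0.01. Per2 gave -0.06 (-0.27 to 0.15), Per3 -0.05 (-0.25 to 0.15), Cry1 -0.12 (-0.35 to 0.11), Dbp -0.09 (-0.27 to 0.08) and Nr1d1 -0.02 (-0.16 to 0.12). Whether E2 acted differently in the 2 genotypes was tested by the interaction. None of the 10 genes was called, where 11 of all genes tested were (0.0729%), and 0 of 10 had an unadjusted p-value under 0.05, beside 5.42% of all genes tested. The interaction was 0.20 for Per2 (95% interval -0.13 to 0.53, unadjusted p = 0.209, adjusted p = 0.9998, limma) and 0.22 for Per3 (-0.10 to 0.54, unadjusted p = 0.158), so a response of these genes to E2 that differs by genotype was not shown, and the intervals leave room for one. Over the alternatives it ran from 0.08 (without E2-treated OVX Het-Met replicate 1) to 0.51 (with the choroid plexus term) for Per2 and from 0.12 to 0.33 (without vehicle-treated OVX WT replicate 1 and 3, respectively) for Per3. Averaged over the genotypes, 0 of 10 clock genes were called with E2 (0.00663% of all genes tested), 0 of 10 had an unadjusted p-value under 0.05 (3.22%), 0 of 10 had libraries that did not overlap (0.318%), and the lowest unadjusted p-values were 0.0528 for Per3 (log2 fold change of -0.16), 0.0585 for Per2 (-0.16) and 0.0658 for Dbp (-0.13).

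The genotypes were compared within each treatment in the same model. Under vehicle, 0 of 10 clock genes were called, where 1 of all genes tested was (0.00663%). Per2 averaged 50.1 ± 1.62 CPM in Het-Met (SD, n = 3) against 63.5 ± 1.38 CPM in WT mice, a log2 fold change of -0.34 ± 0.11 (SE) or 0.790-fold (95% interval 0.672 to 0.928, adjusted p = 0.357, unadjusted p = 0.00707, limma). It was the only clock gene with an unadjusted p-value under 0.05, 1 of 10, and 10.7% of all genes tested had one. All 3 Het-Met libraries lay below both WT libraries for Clock, Per2 and Dbp, 3 of 10, beside 24.7% of all genes tested in either direction and 9.89% in that one. Dbp averaged 32.9 ± 1.43 against 37.2 ± 2.04 CPM (log2 fold change of -0.17, 95% interval -0.37 to 0.02) and Clock 107.1 ± 7.34 against 116.1 ± 0.494 CPM (-0.12, -0.27 to 0.04). Of the 10 values 9 were below 0, Arntl being the exception at 0.02 (95% interval -0.20 to 0.23), and their median was -0.12, where the median of all genes tested was 0.02 and 44.7% of genes were below 0. The value of Cry2 was -0.00, and the count below 0 ran from 7 to 10 over the alternatives, 7 being reached without vehicle-treated OVX WT replicate 1 and without vehicle-treated OVX Het-Met replicate 1 or 2. The vehicle-treated OVX WT libraries are shared by this comparison and by that of E2 in OVX WT mice, so the values of Per2 in the 2 comparisons (-0.34 and -0.26) rest on the same pair of libraries.

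Under E2, 0 of 10 clock genes were called between genotypes (0.0265% of all genes tested), and an unadjusted p-value under 0.05 was found for 0 of 10 (11.7%). The libraries did not overlap for 3 genes, as for 35.8% of all genes tested. These were Per1, at 83.6 ± 4.32 CPM in OVX Het-Met against 98.3 ± 1.73 CPM in OVX WT mice (log2 fold change of -0.23, 95% interval -0.49 to 0.02), Clock, at 109.4 ± 4.45 against 120.1 ± 4.83 CPM (-0.13, -0.29 to 0.02), and Per3, which was higher at 64.7 ± 5.04 against 58.7 ± 0.576 CPM (0.14, -0.09 to 0.36). Per2 gave -0.14 (-0.37 to 0.10).

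Averaged over both treatments, 0 of 10 clock genes were called between genotypes (0.0265% of all genes tested). An unadjusted p-value under 0.05 was found for 3 of 10, all lower in OVX Het-Met mice, and for 16.6% of all genes tested, 7.27% in that direction. Per2 gave a log2 fold change of -0.24 ± 0.08 (SE, adjusted p = 0.166, unadjusted p = 0.00738, limma), Per1 of -0.20 ± 0.09 (adjusted p = 0.263, unadjusted p = 0.0347) and Clock of -0.13 ± 0.05 (adjusted p = 0.241, unadjusted p = 0.0273). For Clock, the 6 OVX Het-Met libraries (99.9 to 114.6 CPM) did not overlap the 4 OVX WT libraries (115.8 to 123.6 CPM), which held for 1 of 10 clock genes beside 4.36% of all genes tested, 1.72% in this direction. Replicate 1 of vehicle-treated OVX Het-Met mice was the lowest library for both Clock and Per1, and the fit without it gave -0.10 for Clock and -0.13 for Per1. In the model of all 10 libraries, the 95% intervals of Arntl, Clock, Cry2 and Nr1d1 in all 7 comparisons lay inside a fold change of 1.3 either way.

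**Figure D3:**
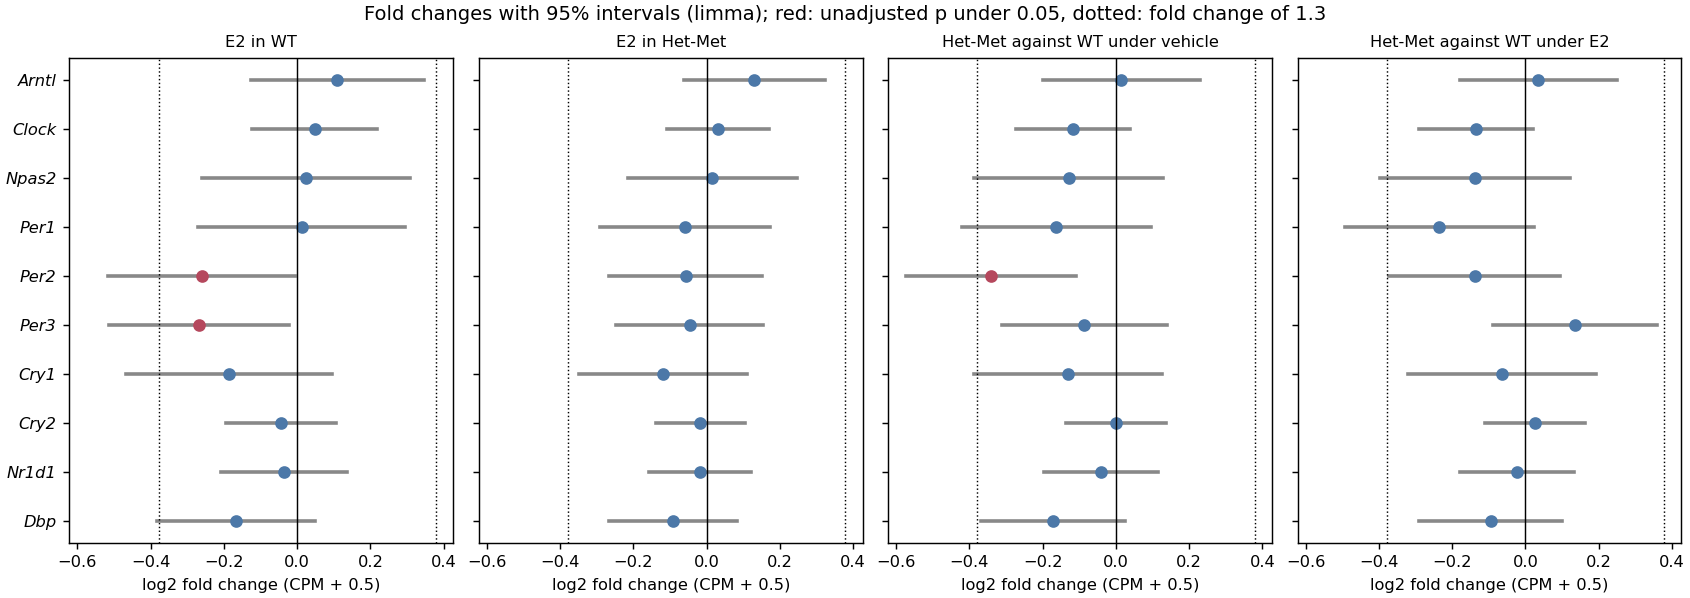
Log2 fold changes on the log2(CPM + 0.5) scale with 95% intervals (limma, horizontal axis) of the 10 clock genes in the 4 comparisons between groups, with red for an unadjusted p-value under 0.05 and dotted lines at a fold change of 1.3. Red points are Per2 and Per3 for E2 against vehicle in WT (-0.26 and -0.27) and Per2 between genotypes under vehicle (-0.34).

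Levels of other cells and states were set beside these results. Transcripts of 12 choroid plexus markers, a tissue that adjoins the ventral hippocampus in the lateral ventricle, summed to 356.1 and 1611 CPM in vehicle-treated OVX WT libraries, 2724 to 3651 CPM in E2-treated OVX WT, 2118 to 4093 CPM in vehicle-treated OVX Het-Met and 525.6 to 2265 CPM in E2-treated OVX Het-Met libraries, and no marker was at 0 in all libraries. Of these 12 markers 0 were called in any comparison. All 12 had an unadjusted p-value under 0.05 (limma) with E2 in OVX WT mice (4.04% of all genes tested) and between genotypes under vehicle (10.7%), both times higher (median log2 fold changes of 1.98 and 1.46). Between genotypes under E2 all 12 had one too (11.7% of all genes tested) and were lower (median of -1.57). The same held for the interaction (5.42% of all genes tested), lower for all 12 (median of -2.98, lowest adjusted p = 0.0507, limma). With E2 in OVX Het-Met mice all 12 were below 0 (median of -1.18), 10 of them with an unadjusted p-value under 0.05 (5.45% of all genes tested). Their part in the values of Per2 was not tested beyond the covariate, with which Per2 gave -0.44 on the log2 scale for E2 in OVX WT mice and -0.51 between genotypes under vehicle. Over the 10 libraries the level of Per2 and that of the choroid plexus markers gave r = -0.00764 (permutation p = 0.983) and rho = -0.139 (permutation p = 0.707), and on deviations from the group means r was 0.547 (exact permutation p = 0.312). All 10 hippocampal excitatory neuron markers were detected (sums of 1002 to 1240 CPM), and 1 of them was called, Fibcd1, for the interaction (log2 value of -0.69, adjusted p = 0.0333, limma). Fibcd1 was 0.31 between genotypes under vehicle and -0.38 under E2 (unadjusted p = 7.29e-04 and 8.64e-05, limma), and Zbtb20 was -0.69 and -0.91 there (unadjusted p = 0.0318 and 0.00684). C1ql2 and Spink8 were higher under vehicle, at 0.43 and 0.42 (unadjusted p = 0.00807 and 0.0276, limma), and stood at 0.20 and -0.02 under E2. Under vehicle 3 of the 10 were thus higher and 1 lower by an unadjusted p-value under 0.05 (10.7% of all genes tested). Under E2 0 were higher and 2 lower (11.7%). By sign alone, 6 of these markers were above and 4 below 0 under vehicle, 4 above and 6 below under E2, and 2 above and 8 below for the interaction. Wfs1 had the opposite sign to Fibcd1 each time, at -0.13, 0.16 and 0.28 (unadjusted p = 0.3385, 0.239 and 0.138, limma). Of 5 markers of thalamus and habenula, regions outside the hippocampus, 0 were called. All 5 were above 0 between genotypes under E2 (median log2 fold change of 0.41), 4 of them with an unadjusted p-value under 0.05, beside 11.7% of all genes tested. Between genotypes under vehicle, and with E2 in OVX WT mice, 3 were above and 2 below 0. With E2 in OVX Het-Met mice and for the interaction all 5 were above 0, 2 of them each time with such a p-value (5.45% and 5.42% of all genes tested). Slc17a6 gave -0.72 between genotypes under vehicle, 0.65 with E2 in OVX Het-Met mice and 1.02 for the interaction (adjusted p = 0.139, 0.212 and 0.0522, limma). The sums of the 5 markers were 73.9 to 96.8 CPM in E2-treated OVX Het-Met libraries, 65.2 and 66.0 CPM in E2-treated OVX WT, 66.1 and 78.3 CPM in vehicle-treated OVX WT and 59.1 to 69.7 CPM in vehicle-treated OVX Het-Met libraries. All 5 endothelial markers were below 0 with E2 in OVX WT mice (median of -0.19). By the same unadjusted threshold 2 of them were lower, beside 1.66% of all genes tested in that direction. Their sums were 171.1 and 177.0 CPM with E2 against 194.2 and 216.8 CPM with vehicle. No marker of general neurons, astrocytes, oligodendrocytes, microglia or striatum was called in any comparison by limma. The part of these cells in the values of the clock genes was not tested. Of 6 markers of the suprachiasmatic nucleus, the seat of the central clock, and hypothalamus, Six6, Lhx1, Nms and Prok2 averaged under 0.5 CPM, Avp 0.934 CPM and Vip, which hippocampal interneurons also express, 21.0 CPM.

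Immediate-early genes, which mark recent neuronal activity, were set beside the comparisons of genotype and of E2. Of 12 such genes 0 were called by limma in any comparison, and all 12 were below 0 in OVX Het-Met against OVX WT mice under E2 (median log2 fold change of -0.52). There 8 had an unadjusted p-value under 0.05, beside 5.36% of all genes tested in that direction. Over both treatments 6 had one, all lower, beside 7.27% of all genes tested in that direction. Under E2 Egr2 gave -1.45 (adjusted p = 0.314, unadjusted p = 6.24e-04, limma), Fos -0.99, Fosb -0.60, Arc -0.57, Egr4 -0.57, Egr1 -0.51, Ier2 -0.43 and Junb -0.42. Egr2 passed the call between genotypes under E2 by DESeq2 (-1.82, adjusted p = 0.0256) and in limma when E2-treated OVX Het-Met replicate 1 was left out (-1.75, adjusted p = 0.0383). It was a low gene, at 2.42 and 4.21 CPM in E2-treated OVX WT and 1.57, 0.968 and 0.332 CPM in E2-treated OVX Het-Met libraries. Its value ran from -1.85 (pseudocount of 0.1) to -1.03 (with the choroid plexus term). With the choroid plexus term Fos gave -0.37 and Arc -0.19, without E2-treated OVX Het-Met replicate 3 Egr4 gave -0.36 and Egr1 -0.32, and without E2-treated OVX WT replicate 2 Junb gave -0.15. With E2 against vehicle, 11 of the 12 were above 0 in OVX WT mice (median of 0.171) and 10 below 0 in OVX Het-Met mice (median of -0.115). For the interaction 10 were below 0 (median of -0.283), and 2 had an unadjusted p-value under 0.05 (limma), beside 5.42% of all genes tested. The summed level of the 12 genes was 537.7 and 558.0 CPM (WT, vehicle), 528.9 and 676.0 CPM (WT, E2), 405.5 to 594.2 CPM (Het-Met, vehicle) and 366.6 to 561.7 CPM (Het-Met, E2). Per1 followed this sum over the 10 libraries with r = 0.766 (permutation p = 0.0103, adjusted p = 0.309 over 30 relations of a clock gene with a list; rho = 0.697, permutation p = 0.0306, adjusted p = 0.459), and r was 0.586 without the 2 libraries farthest from the median of the sum. On deviations from the group means r was 0.654 (exact permutation p = 0.139). Per2 gave r = 0.640 (permutation p = 0.0451, adjusted p = 0.519; rho = 0.636, permutation p = 0.0533, adjusted p = 0.533) and 0.290 without those libraries, so this relation rested on them. Nr1d1 gave r = 0.613 (permutation p = 0.0622; rho = 0.758, permutation p = 0.0146, adjusted p = 0.439) and Dbp r = 0.587 (permutation p = 0.0693), with 0.336 and 0.140 without those libraries. On deviations from the group means r was 0.662 for Per2 (exact permutation p = 0.160) and 0.821 for Cry2 (exact permutation p = 0.0625). None of the 30 relations passed the adjustment, and the part of neuronal activity in the values of these genes was not tested further.

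A phase-like pattern between libraries was looked for gene by gene. Of the 15 pairs that join Arntl, Clock or Npas2 with Per1, Per2, Per3, Nr1d1 or Dbp, 4 had a negative r over the 10 libraries and 11 a positive one, with a median of 0.272, and 0 of 15 had a permutation p-value under 0.05. The negative pairs were Arntl with Dbp (r = -0.555), Arntl with Per2 (r = -0.360), Clock with Per3 (r = -0.237) and Npas2 with Per3 (r = -0.166). Taken on deviations from the group means, 5 of the 15 were negative. Clock gave positive values with Per1 (r = 0.569, permutation p = 0.0844, adjusted p = 0.380 over the 45 pairs of clock genes) and with Per2 (r = 0.447, permutation p = 0.194), and Npas2 with Nr1d1 (r = 0.413, permutation p = 0.229), which is the direction of moving together, without passing the test.

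Arntl and Dbp, the pair that stands for the arms of the loop, gave r = -0.555 (permutation p = 0.100, adjusted p = 0.380) and rho = -0.273 (permutation p = 0.448, adjusted p = 0.642). The extremes faced each other. Arntl was lowest, at 27.7 CPM, in vehicle-treated OVX WT replicate 3, where Dbp was highest at 38.6 CPM, and Dbp was lowest, at 27.9 CPM, in replicate 3 of E2-treated OVX Het-Met mice, where Arntl stood at 35.4 CPM. Leaving out the 2 libraries farthest from the median of Arntl gave r = -0.0125 (permutation p = 0.978), these being replicate 3 of vehicle-treated OVX WT mice and replicate 2 of vehicle-treated OVX Het-Met mice. The relation rested on the former, since r was -0.173 with it alone left out and -0.55 with the latter alone left out. With single libraries left out, r ran from -0.713 (without replicate 1 of vehicle-treated OVX WT mice, permutation p = 0.0389) to that -0.173. On deviations from the group means r was -0.397 (exact permutation p = 0.319 over 144 orders within groups).

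Pairs within each arm were compared in the same way. The 10 pairs among Per1, Per2, Per3, Nr1d1 and Dbp all had a positive r, with a median of 0.530, and 1 of the 10 was negative on deviations from the group means. Per2 and Dbp gave r = 0.875 (permutation p = 0.00235, adjusted p = 0.0529; rho = 0.758, permutation p = 0.0150), 0.747 without the 2 libraries farthest from the median of Per2 and 0.720 on deviations from the group means (exact permutation p = 0.215). Per1 and Nr1d1 gave r = 0.782 (permutation p = 0.00770, adjusted p = 0.115; rho = 0.782, permutation p = 0.0109), 0.614 without 2 libraries and 0.822 on deviations from the group means (exact permutation p = 0.0278). In the positive arm, Clock and Npas2, genes for alternative partners of the Arntl protein, gave r = 0.856 (permutation p = 0.00177, adjusted p = 0.0529; rho = 0.636, permutation p = 0.0540), 0.635 without 2 libraries and 0.902 on deviations from the group means (exact permutation p = 0.0278). Arntl itself gave values near 0 with its partners, r = -0.119 with Clock (permutation p = 0.743) and -0.0492 with Npas2 (permutation p = 0.898). Of the 45 pairs, 8 had a negative r, 5 had a permutation p-value under 0.05 and 0 passed adjustment over the 45 pairs, the lowest adjusted p being 0.0529. Among these 5 were also Per3 with Cry2 (r = 0.739, permutation p = 0.0162) and Cry1 with Dbp (r = 0.701, permutation p = 0.0173), each with an adjusted p of 0.156. On deviations from the group means r was 0.672 for Per3 with Cry2 and 0.307 for Cry1 with Dbp (exact permutation p = 0.125 and 0.424). Of the 45 pairs, 4 had an exact permutation p-value under 0.05 on such deviations and 0 passed adjustment. The adjusted p there was 0.547 for Per1 with Nr1d1 and for Clock with Npas2.

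**Figure D4:**
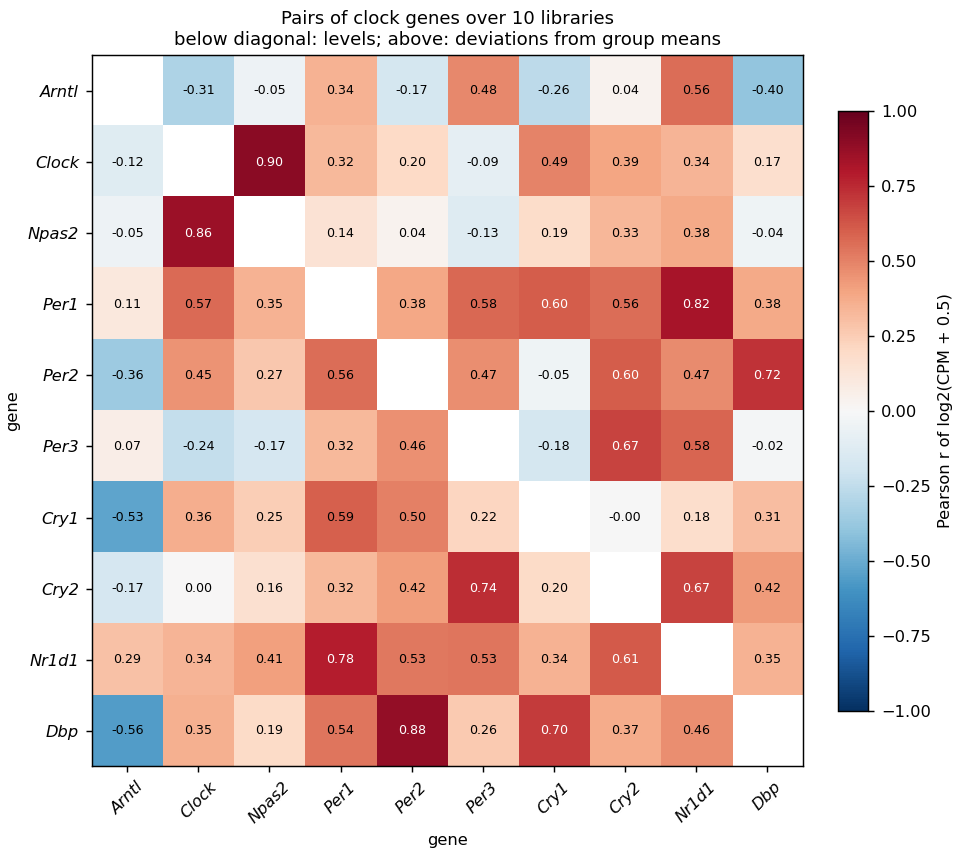
Pearson r of log2(CPM + 0.5) for each pair of the 10 clock genes over the 10 libraries (below the diagonal) and of deviations from group means (above it), from -1 (blue) to 1 (red). Below the diagonal, blue cells gather in the column of Arntl, while the block of Per1, Per2, Per3, Nr1d1 and Dbp is red throughout (median r of 0.530). Above it, blue cells also lie in rows other than that of Arntl.

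Library by library, the arms lay on the same side of their means in some libraries and on opposite sides in others. In replicate 1 of vehicle-treated OVX WT mice all 3 genes of the positive arm and all 5 of the Per, Nr1d1 and Dbp group lay above their means over the 10 libraries, and in replicate 1 of vehicle-treated OVX Het-Met mice 0 of 3 and 1 of 5 did, with Clock (99.9 CPM), Per1 (70.8 CPM) and Nr1d1 (172.5 CPM) at their lowest there. Replicate 3 of vehicle-treated OVX Het-Met mice had 1 of 3 and 4 of 5 above their means, and replicate 3 of E2-treated OVX Het-Met mice 2 of 3 and 0 of 5. In E2-treated OVX Het-Met replicate 2 1 of 3 and 0 of 5 lay above. These counts are a description over 10 libraries, with no test.

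**Figure D5:**
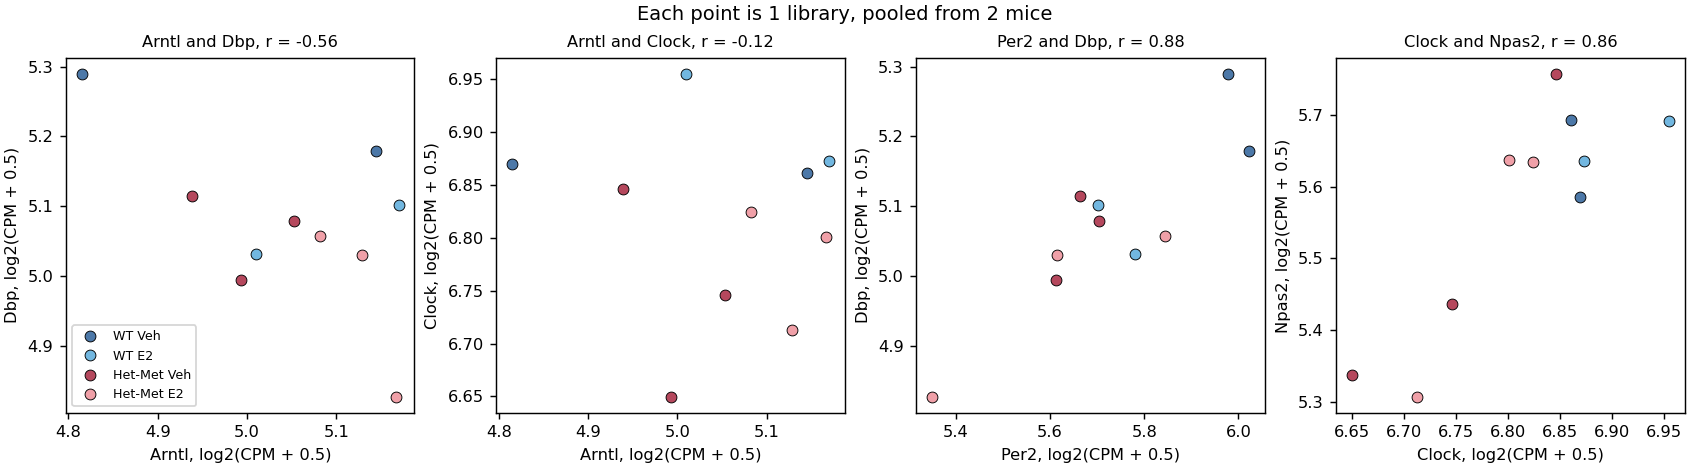
Levels as log2(CPM + 0.5) on both axes for 4 pairs of clock genes, each point 1 library coloured by group. Arntl and Dbp spread from an upper left to a lower right library with a loose cloud between them (r = -0.555), Arntl and Clock show no trend (r = -0.119), and Per2 with Dbp (r = 0.875) and Clock with Npas2 (r = 0.856) rise together.

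The wider clock pathway was followed in a list of 19 further genes: the ROR and Rev-erb receptors, other PAR bZIP factors and their repressor Nfil3, the Bhlhe40 and Bhlhe41 repressors, and kinases and ubiquitin ligase parts that set the stability of the PER and CRY proteins. All 19 were tested, and 0 were called in any of the 7 comparisons. With E2 in OVX WT mice 0 of 19 had an unadjusted p-value under 0.05 (7 above 0 and 12 below, median log2 fold change of -0.04), against 4.04% of all genes tested. In the E2 comparison of OVX Het-Met mice 3 of 19 had one (5.45% of all genes tested): Csnk1d, a casein kinase that phosphorylates PER proteins, gave -0.17 (adjusted p = 0.755, unadjusted p = 0.00992, limma), and the PAR bZIP relatives of Dbp gave opposite signs, -0.15 for Tef (unadjusted p = 0.0174) and 0.13 for Hlf (unadjusted p = 0.0339). Csnk1d was also the only one of the 19 with an unadjusted p-value under 0.05 for the interaction (-0.27, adjusted p = 0.556, unadjusted p = 0.00838, limma), 1 of 19 beside 5.42% of all genes tested. Between genotypes, 1 of 19 had one under vehicle (10.7% of all genes tested) and 3 of 19 under E2 (11.7%). Under vehicle Hlf gave -0.21 (adjusted p = 0.336, unadjusted p = 0.00472, limma), and under E2 Csnk1d gave -0.16, Nr1d2, the gene for the other Rev-erb receptor, 0.17 and Bhlhe41 0.20 (unadjusted p = 0.0244, 0.0456 and 0.0383). Nr1d2 and Nr1d1, which repress the same targets, did not share a sign there (0.17 and -0.02). Over both treatments 3 of 19 were lower in OVX Het-Met mice, beside 7.27% of all genes tested in that direction: Gsk3b, a kinase that acts on several clock proteins, gave -0.17 (adjusted p = 0.186, unadjusted p = 0.0120, limma), Bhlhe40 -0.13 (unadjusted p = 0.0475) and Hlf -0.12 (unadjusted p = 0.0209). Gsk3b gave -0.11 without vehicle-treated OVX WT replicate 3 and Bhlhe40 -0.08 without E2-treated OVX Het-Met replicate 3. With E2 over both genotypes 1 of 19 had such a p-value (3.22% of all genes tested), Rora at 0.20 (adjusted p = 0.9995, unadjusted p = 0.0243, limma), which was 0.11 without vehicle-treated OVX WT replicate 1.

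Gene models bear on some of these values. On mm10, the exons of Nr1d1 (chr11:98767932-98775333, - strand) share 263 bases with those of Thra, a gene on the opposite strand, those of Dbp (chr7:45705088-45710203, + strand) share 539 bases with Sphk2, and those of Cry2 share 295 bases and of Arntl 33 bases with noncoding genes on the opposite strand. The library kit kept strand, but the strand setting of the counting is not given in the sources used here, so reads over these bases may belong to either gene. The other 6 genes, among them Per2 (chr1:91415982-91459324, - strand), share no exon bases with another gene of the annotation.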

How the data were processed

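Mouse vHpc RNA was sequenced on a NextSeq instrument from stranded TruSeq libraries (75-bp single-end reads). After trimming and filtering, the authors used TopHat2 to align reads to mm10, counted reads for each gene symbol and deposited CPM. All CPM values (100%, tolerance 1e-06) divided without remainder by the lowest nonzero value of the library, which gave back 19820184 to 23267410 whole reads per library, 1 read being worth 0.0430 to 0.0505 CPM. Count-based SDs cover counting error only. Libraries of 1 group differed beyond sampling noise (chi-square per degree of freedom of 3.29 to 13.5). The human libraries were not analysed here.

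The members and all gene lists were chosen with earlier results of these data known. limma 3.58.1 (R 4.3.3) fitted the 4 group means on log2(CPM + 0.5) for 15081 genes (mean 0.5 CPM or more), with a trend and empirical Bayes moderation (prior df 8.90, residual df 6), two-sided. Fold changes on this scale understate those of low genes, and calls used the thresholds of the methods (adjusted p-value under 0.05, fold change above 1.3). Correlations used 100000 permutations, or all 144 orders within groups, with scipy 1.17.1. The 2 libraries farthest from the median of the gene or sum named first were left out in turn. Named genes were the 10 members, genes of the pathway lists with an unadjusted p-value under 0.05 in a pairwise comparison or the interaction (those of the averages, and markers, were named after their values were seen), and the 5 genes with the highest and lowest r with Arntl and with Dbp. The lists were clock-associated, immediate-early, glucocorticoid-induced and temperature-responsive genes and markers of choroid plexus, hippocampal excitatory neurons, suprachiasmatic nucleus, thalamus and habenula, endothelium, neurons, astrocytes, oligodendrocytes, microglia and striatum. Relations of members with lists were added after seeing the data. Alternatives were other pseudocounts, filters and scalings, a replicate block, only the libraries compared, edgeR 4.0.16 and DESeq2 1.42.0 on the recovered reads, each library left out, and a choroid plexus covariate. Gene models were GENCODE vM21 and promoter windows RefSeq (GRCm38.p6).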

Additional observations from a re-analysis of the deposited data

How the results depend on the processing

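None of the 10 clock genes was called in any of the 7 comparisons, 0 of 10 by limma, edgeR or DESeq2 and under every alternative run, and the lowest adjusted p-value over all of them was 0.0707, for Per2 between genotypes over both treatments. By limma at an unadjusted p-value under 0.05 the count was 6 of 70 values. Of these 6, 0 changed sign, and they kept an unadjusted p-value under 0.05 in 9 of 22 (Per2 with E2 in OVX WT mice, -0.44 to -0.22), 17 of 22 (Per3, -0.37 to -0.16), 22 of 22 (Per2 between genotypes under vehicle, -0.51 to -0.32), 21 of 21 (Per2 over both treatments, -0.30 to -0.18), 17 of 21 (Clock, -0.15 to -0.10) and 15 of 21 alternatives (Per1, -0.27 to -0.13). Of the 70 values, 34 changed sign under at least 1 alternative, in 88 of 1510 alternative values. For Arntl and Dbp, r was -0.44 with median-of-ratios scaling, -0.45 with TMM and -0.43 with quantile normalization, -0.55 with a pseudocount of 1, and ran from -0.713 to -0.173 with single libraries left out. The number of negative pairs among the 15 ran from 3 to 7 with single libraries left out, 7 without replicate 1 of the vehicle-treated OVX Het-Met mice and 6 when vehicle-treated OVX WT replicate 1 was left out. Counts over all genes moved with the tool and the libraries, from 0 to 16 for E2 in OVX WT mice, 0 to 6 for E2 in OVX Het-Met mice, 1 to 34 and 0 to 52 between genotypes under vehicle and E2, 0 to 71 for the interaction, and 0 to 5 and 1 to 88 for the averages over genotypes and treatments. The cause of these changes was not tested.

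Deviations of same-numbered libraries correlated with r from -0.172 to 0.0826 (0 of 12 pairs above 0.1), and those of other libraries from -0.151 to 0.172. In the WT groups of 2 libraries the deviations from the group mean mirror each other, which ties values of both kinds. The check therefore cannot settle whether replicate numbers pair the samples. With the replicate block 0 of 10 members were called in each comparison, r of Arntl and Dbp was -0.518, and 5 of the 15 pairs were negative. Depth limits Cry1, with 206 to 267 reads per library, more than the other members.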

Other observations

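The genes tested whose levels were most like that of Arntl over the 10 libraries were Slc25a45 (r = 0.917), D430036J16Rik (0.895), 9430091E24Rik (0.886), 5033404E19Rik (0.882) and Zic2 (0.877), and the least alike were Ltbr (-0.901), Cd180 (-0.887), 5730405O15Rik (-0.878), Mapkap1 (-0.877) and Ndnf (-0.875). For Dbp the most alike were Adam19 (0.909), Pde12 (0.889), Fgfr3 (0.887), Dnaaf2 (0.876) and Per2 (0.875), so a clock gene ranked 5 of the 15080 other genes tested, and the least alike were Ift46 (-0.950), Dusp23 (-0.949), AU019823 (-0.948), Dnajc30 (-0.943) and Ypel1 (-0.927). Among 15080 genes and 10 libraries, values of this size are a description of these libraries, which share groups and depth.

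Among 10 glucocorticoid-induced genes, 0 were called by limma in any comparison. Between genotypes under E2, 3 of 10 had an unadjusted p-value under 0.05 (limma; 11.7% of all genes tested, 5.36% in the lower direction), Plin4 at a log2 fold change of -0.73, Zbtb16 at -0.37 and Fkbp5, a co-chaperone of the glucocorticoid receptor, at -0.22. Fkbp5 gave -0.26 with E2 in OVX Het-Met mice, Sgk1 0.29 with E2 in OVX WT mice, and the interaction was -0.31 for both Fkbp5 and Errfi1. Under E2 Plin4 gave -0.44 without E2-treated OVX Het-Met replicate 3 and Zbtb16 -0.19 with the choroid plexus term, with which the interaction was -0.17 for Fkbp5 and -0.14 for Errfi1. Among 7 temperature-responsive genes, 0 were called. Cirbp, a cold-induced RNA-binding protein gene whose level follows body temperature over the day, gave -0.27 with E2 in OVX WT mice (adjusted p = 0.714, unadjusted p = 0.00524, limma) and 0.28 between genotypes under E2 (adjusted p = 0.329, unadjusted p = 0.00212, limma). It was 1 of 7 with an unadjusted p-value under 0.05 each time, beside 4.04% and 11.7% of all genes tested. The 7 genes did not share a sign, with 4 above and 3 below 0 in the former comparison and 2 above and 5 below in the latter.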
